A study of Homo sapiens with 6 samples.

Results

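The cytosolic ribosomal protein genes encode the proteins that, with the ribosomal RNAs, form the small (RPS) and large (RPL) subunits of the ribosome outside mitochondria. Members were taken by symbol alone: protein-coding genes of GENCODE 29 named RPL or RPS with a number and an optional A, X, L or L1 ending, plus RPLP0, RPLP1, RPLP2 and RPSA, without the RPS6K kinases and read-through genes. This gave 84 of 58735 genes, 52 of the large subunit and its stalk and 32 of the small subunit. They were measured by RNA-seq in C4-2B MDVR, an established human prostate cancer cell line derived from C4-2B and resistant to enzalutamide. The cells were treated for 2 days with DMSO (the control), 20 µM enzalutamide, an androgen receptor antagonist, 10 or 20 µM PTUPB, which blocks both soluble epoxide hydrolase and cyclooxygenase-2, or either PTUPB dose with enzalutamide. The labels give no enzalutamide dose for the combinations, and an equal dose was assumed in every fit. Each of the 6 groups is 1 library of this 1 line, with no replicate culture to set a difference against. FPKM are relative to the rest of a library, so more of these mRNAs and less of the others, or a changed mix of cells, cannot be told apart.

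Ribosomal protein genes are among the most strongly transcribed genes of growing cells, and their products are made in matched amounts because a ribosome holds nearly all of them in equal number. Most of their mRNAs begin with a C followed by a run of pyrimidines, the TOP (terminal oligopyrimidine) motif, through which mTORC1 and the RNA-binding protein LARP1 control their translation rather than their transcription. Some members have roles outside the ribosome: RPL5 and RPL11 bind 5S rRNA and inhibit MDM2, a ubiquitin ligase. A few have paralogs, such as RPL22L1 for RPL22 and RPS27L for RPS27, which are used in particular tissues or states.

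Recovered fragments per library numbered 20160005 to 29452917. The line was checked against its cell type: 9 of 9 luminal prostate markers had a mean of at least 1 FPKM, the deposited unit (fragments per kilobase of exon, scaled by depth), and summed to 288 to 903 FPKM per library. At 20 µM PTUPB 6 of these 9 fell by the fit described below, with a median effect over the list of −3.04 on the log2(FPKM + 1) scale, and their sum was lowest in the 2 libraries at that dose; their part in the results was not tested. None of 4 basal, 5 blood or 3 endothelial markers reached that level; their sums were at most 0.674, 0.351 and 0.496 FPKM, and 1 blood marker was listed at 0 in every library. Of 5 stromal markers 1 reached it, COL1A1, which rose at 20 µM (0.96), and their sum was 3.54 to 6.53 FPKM. The share of summed FPKM held by the genes of the mitochondrial genome differed between libraries, from 21.8% in PTUPB 20 µM to 41.9% in PTUPB 10 µM with enzalutamide, so shares of all FPKM are given with and without them. Its part in the results was not tested.

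The first bases of the transcripts are shown because the TOP motif is the sequence feature most of the members share. Of the 84 members, 67 had an entry in the RefSeq promoter table (GRCh38.p14). At any of the annotated starts of a gene, 47 of these 67 (70.1%) had a C followed by at least 4 further pyrimidines, against 5.14% of 27305 genes in the table. The windows below hold 10 bases before and 20 bases from the annotated start, 5′ to 3′ on the transcribed strand. Capitals mark the run of C and T letters that begins at the start, and a sequence with no capitals has no run of at least 5.
RPL7A, chr9:133348208-133348237, plus strand: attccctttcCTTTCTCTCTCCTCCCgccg
RPL22, chr1:6199576-6199605, minus strand: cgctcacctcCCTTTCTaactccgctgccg
RPL22L1, chr3:170870176-170870205, minus strand: ccgtagcttcCTCTCTgctctcgcggccga
RPS6, chr9:19380217-19380246, minus strand: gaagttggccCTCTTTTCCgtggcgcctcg
RPLP0, chr12:120201092-120201121, minus strand: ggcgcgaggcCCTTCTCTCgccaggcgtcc
RPL13A, chr19:49487598-49487627, plus strand: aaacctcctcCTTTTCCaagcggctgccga
RPS27, chr1:153990752-153990781, plus strand: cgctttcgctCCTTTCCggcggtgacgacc
RPS27L, chr15:63157458-63157487, minus strand: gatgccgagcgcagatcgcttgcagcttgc
RPL7L1, chr6:42879606-42879635, plus strand: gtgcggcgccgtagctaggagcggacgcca
RPL10L, chr14:46651762-46651791, minus strand: gtagttaagagagcgcattttgacttcgag
RPL7A, RPL22 and RPL22L1 were lower at 20 µM PTUPB and carry the run, as do RPS6, RPLP0, RPL13A and RPS27 among the abundant members. RPS27L, which was higher, RPL7L1, which was lower, and the retrogene RPL10L have none. Of the 5 tested paralogs 1 carries the run and 4 do not. The length of the run was 5 to 19 bases.

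The members spanned a wide range of mRNA abundance in this line. Mean FPKM over the 6 libraries was above 500 for 16 members, from 100 to 500 for 47, from 20 to 100 for 10 and at most 20 for 11. The highest were RPL13A at 1269 FPKM, RPS18 at 1109, RPS6, the classical substrate of the S6 kinases, at 1088 and RPS2 at 1037. A pair of paralogs known from other tissues was near or at the floor: RPL3L, of striated muscle, was at 0.147 to 0.988 FPKM, and RPL39L, of testis, was listed at 0 in every library. EEF1G, a translation elongation factor gene that growing cells use, was listed at 0 in every library too, so a listed 0 is not read as absence of the transcript. These 2 paralogs did not pass the level filter of a mean of 1 FPKM, and the other 82 members were tested.

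Low values of a few core members have to be read with their annotation. RPS10 and RPL36A had means of 2.2 and 2.5 FPKM and RPL17 9.1 FPKM, although each is a constitutive part of the ribosome. Exons of read-through genes cover 39.4% of the exon bases of RPS10 and 8.4% of those of RPL36A, and exons of a read-through gene and other genes of either strand cover 35.3% of those of RPL17. Of the fragments given to RPS10 or to a pseudogene named after it, 73.3% were on the pseudogenes. Over all members, the 1149 named ribosomal protein pseudogenes held only 0.994% to 1.15% of the fragments of members and pseudogenes together. How far shared reads set these levels was not tested.

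The members as a group made up a similar part of the mRNA in the control and with 20 µM PTUPB alone, and most in the combination of 20 µM PTUPB with enzalutamide. Their share of summed FPKM was 8.39% in the control, 8.25% with enzalutamide, 7.09% with 10 µM PTUPB, 6.84% with 10 µM PTUPB and enzalutamide, 8.79% with 20 µM PTUPB and 10.5% with 20 µM PTUPB and enzalutamide. Without the genes of the mitochondrial genome the shares were 11.0%, 13.3%, 11.5%, 11.8%, 11.2% and 13.6% in the same order. On that base the libraries with enzalutamide at 0 and at 20 µM PTUPB held the larger shares, and the control the smallest. The median member stood at 194, 251, 211, 201, 205 and 294 FPKM in the same order.

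**Figure D1:**
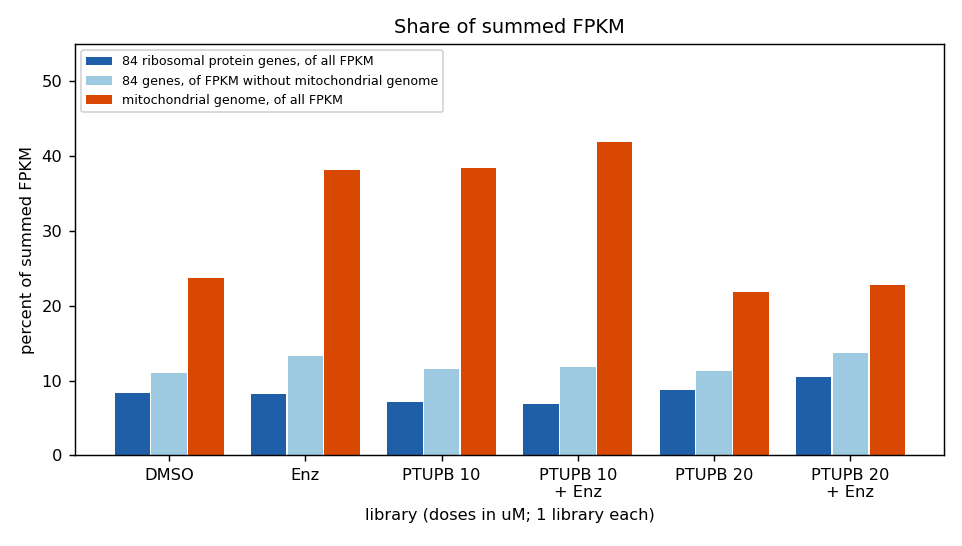
Bars give, for each library, the percent of summed FPKM held by the 84 ribosomal protein genes over all genes (dark blue) and without the genes of the mitochondrial genome (light blue), and that of the mitochondrial genome itself (red). The ribosomal protein share over all genes runs from 6.84% to 10.5% and the share without mitochondrial genes from 11.0% to 13.6%.

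Most members were highest with 20 µM PTUPB and enzalutamide together. RPS6 was at 857 FPKM in the control, 1108 with enzalutamide, 938 with 10 µM PTUPB, 871 with 10 µM PTUPB and enzalutamide, 1009 with 20 µM PTUPB and 1746 with 20 µM PTUPB and enzalutamide. The combination at 20 µM was the highest of its libraries, followed by enzalutamide alone, and the control the lowest. This order of the 2 highest libraries was found in 44 of 82 members and in 3.72% of all tested genes. The combination at 20 µM was the highest library for 58 members (31.8% of all genes) and the lowest for 4 (26.8%), and the control was the lowest for 39 (13.6%). The stalk proteins, which recruit the translation factors to the ribosome, had the same 2 highest libraries. In the order above, RPLP0 was at 569, 748, 590, 615, 603 and 915 FPKM. RPLP1 was at 189, 268.9, 232, 237, 237 and 386 FPKM, and RPLP2 at 192, 253, 214, 195, 208 and 326 FPKM. All these orders of libraries are those of the deposited FPKM. They depend in part on the scaling, as with TPM, in which every library has the same sum. There the median log2 difference of members from the control was −0.03 with enzalutamide, −0.21 with 10 µM PTUPB and 0.09 with 20 µM PTUPB. The combination at 20 µM stayed above enzalutamide alone with TPM, by a median of 0.34 (65 members higher, 17 lower; all genes, 53.7% higher). Against 20 µM PTUPB alone its median was 0.27 (67 higher, 15 lower; all genes, 31.5%). With total fragments these 2 medians were 0.17 and 0.37.

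**Figure D2:**
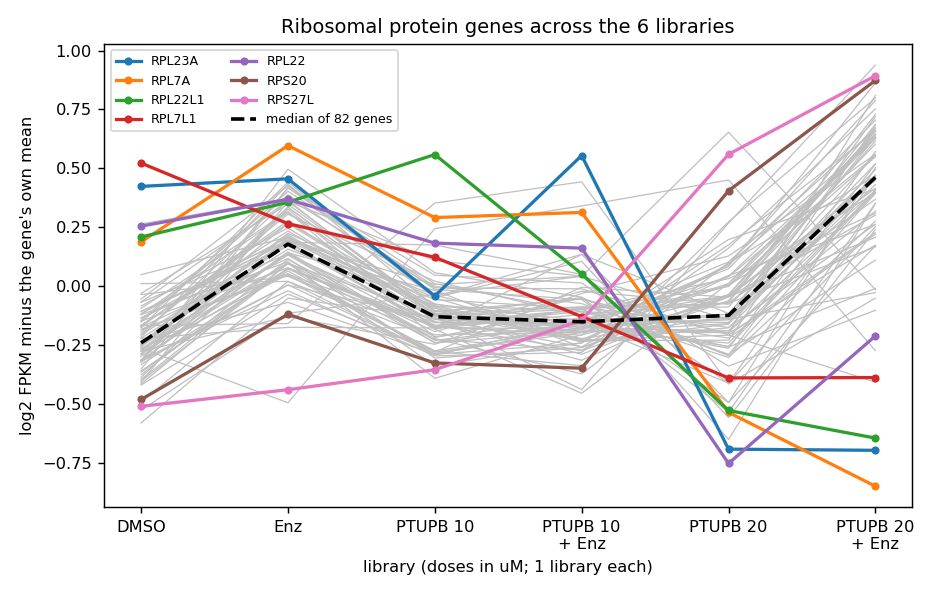
log2 FPKM of each of the 82 tested genes in each library, minus that gene's own mean over the 6 libraries. Grey lines are genes not called at 20 µM PTUPB, coloured lines the 7 called ones, and the dashed black line the median of the 82 genes, which is highest with 20 µM PTUPB plus enzalutamide; 5 of the coloured lines drop at 20 µM and 2 rise.

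With enzalutamide most members were slightly higher at 0 and at 20 µM PTUPB, and about as many were higher as lower at 10 µM. Against DMSO, 80 of 82 members were higher with enzalutamide and 2 lower, where 49.3% of all 12960 tested genes were higher; the median member difference was 0.40 on the log2 scale, against −0.0025 for all genes. Against 20 µM PTUPB, 76 were higher and 6 lower (all genes, 53.1% higher), with a median of 0.58. Against 10 µM PTUPB, 39 were higher and 43 lower (all genes, 48.6%), with a median of −0.0065. In all 3 pairs together, 35 members were higher with enzalutamide each time (13.6% of all genes) and 0 lower each time (12.6%). RPL41, the smallest ribosomal protein, was at 575 FPKM in the control and 883 with enzalutamide, 628 and 699 at 10 µM PTUPB, and 442 and 768 at 20 µM. RPS21 was at 340 and 580 FPKM in the first pair, 430 and 417 in the second and 308 and 615 in the third.

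The size of this difference depends on how the libraries are scaled, and its position relative to other genes much less. With TPM, in which every library has the same sum, the median member difference of enzalutamide against DMSO was −0.03 on the log2 scale, with 34 members higher and 48 lower, while the median of all genes was −0.41. The members' median minus that of all genes was 0.40 with the deposited FPKM, 0.37 with TPM and 0.37 with total fragments. For the pair at 20 µM PTUPB it was 0.55, 0.51 and 0.49, and for the pair at 10 µM it was 0.0019, 5.4e-05 and 0.0033. At a difference of at least 1 on the log2 scale, 0 members were past it with enzalutamide against DMSO (2.69% of all genes), 0 against 10 µM PTUPB (3.42%) and 1, RPL36, against 20 µM PTUPB (6.74%).

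The additive model of limma fits PTUPB as 3 levels plus enzalutamide over the 6 libraries, so its enzalutamide effect averages the 3 pairs. The median of this effect over the members was 0.32 on the log2(FPKM + 1) scale, and 77 of 82 effects were above 0. Over all genes the median was 0.015, with 6836 of 12960 effects above 0. With TPM the medians were 0.059 for the members and −0.23 for all genes. With 1 library per group, its p-values measure departure from additivity with 2 residual degrees of freedom and not the spread of cultures. No member passed an adjusted p of 0.05, and neither did any gene of the 12960 (0% called); at an unadjusted p under 0.05 there were 626 genes, of which 1 member, RPL31 of the large subunit. The largest effects were those of RPS21 (0.57), RPL27 (0.53), RPL41 (0.52) and RPS18 (0.52), the most negative those of RPS10 (−0.19), RPL7L1 (−0.16) and RPL22L1 (−0.16), and the lowest adjusted p among the members was 0.92. By class the median was 0.34 for 31 small subunit genes, 0.30 for 43 large subunit genes and 0.35 for the 3 stalk genes. It was −0.06 for the 5 tested paralogs, RPL7L1, RPL10L, RPL22L1, RPL26L1 and RPS27L.

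At 10 µM PTUPB most members were lower than without PTUPB in the pair with enzalutamide, and the direction without enzalutamide depended on the scaling. Without enzalutamide, 64 of 82 members were higher than in the control (all genes, 45.4% higher), with a median of 0.10 on the log2 scale. With enzalutamide, 75 were lower than with enzalutamide alone and 7 higher (all genes, 43.1% higher), with a median of −0.32. With TPM, 74 were lower and 8 higher in each pair, with medians of −0.21 and −0.25, and with total fragments 42 were higher and 40 lower in the first pair. The members' median minus that of all genes was 0.13 with FPKM, 0.12 with TPM and 0.11 with total fragments in the first pair, and −0.27, −0.26 and −0.26 in the second. Past 1 on the log2 scale were 0 members in the pair without enzalutamide (2.39% of all genes) and 0 in the pair with it (3.81%). RPSA, which is also known as a laminin receptor precursor, was at 451 FPKM in the control and 429 with 10 µM PTUPB, and at 587 with enzalutamide and 393 with both. RPS10, at 1.82, 1.55, 2.58, 2.76, 2.98 and 1.803 FPKM, had the largest additive effect upward (0.45), followed by RPL36A (0.41) and RPL10L (0.30). RPL7L1 (−0.38), RPS15 (−0.33) and RPSA (−0.32) had the largest downward. By limma's additive fit 0 members and 0 genes passed (0% called); at an unadjusted p under 0.05 there were 480 genes and 0 members. The median member effect was −0.11 with 70 effects below 0, and it was 0.12 without the library of 10 µM PTUPB with enzalutamide.

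**Figure D3:**
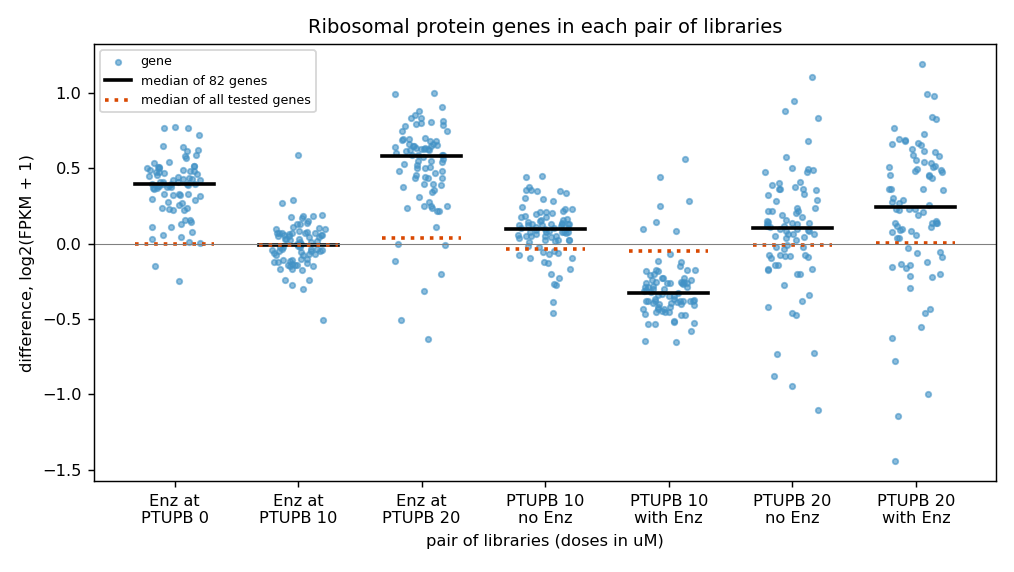
Difference on the log2(FPKM + 1) scale of each of the 82 tested genes in 7 pairs of libraries that differ in 1 agent. Points are genes, black bars their median and dotted red bars the median of all tested genes; the ribosomal protein median is highest for enzalutamide at 20 µM PTUPB (0.58) and lowest for 10 µM PTUPB with enzalutamide (−0.32).

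At 20 µM PTUPB, where a large part of the transcriptome changed, few ribosomal protein genes did. By limma's additive fit against no PTUPB, 2 members rose (RPS27L and RPS20), 5 fell (RPL23A, RPL7A, RPL22L1, RPL7L1 and RPL22) and 75 did not pass, so 8.54% of the members were called. Of all tested genes 34.2% were called, 15.9% rising and 18.2% falling. The median member effect was 0.20 on the log2(FPKM + 1) scale, with the middle 50% of members between −0.05 and 0.40, against 0.0045 for all genes. The SD of the effects was 0.41 over the members and 0.93 over all genes. At an unadjusted p under 0.05 there were 12 members (14.6%) and 6020 genes (46.5%). Of 77 tested genes for mitochondrial ribosomal proteins, which build the separate ribosome inside mitochondria, 7 rose and 10 fell, with a median of 0.21.

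These counts moved with the libraries in the fit. Without the control library, and without the enzalutamide library, 0 members rose and 0 fell, and the share of all genes called was 7.58% and 2.5%. Without 1 or the other of the libraries at 10 µM PTUPB, 3 rose and 2 fell, without 20 µM PTUPB 6 and 2, and without the combination at 20 µM 2 and 2. The share of all genes called in those 4 fits was 25.5%, 25.5%, 41.7% and 32.9%. Each fit has 1 residual degree of freedom.

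RPL23A, a large subunit protein at the exit of the peptide tunnel, was lowest at 20 µM PTUPB. It stood at 128 FPKM in the control, 131 with enzalutamide, 92.9 with 10 µM PTUPB, 140 with 10 µM PTUPB and enzalutamide, 59.1 with 20 µM PTUPB and 58.9 with 20 µM PTUPB and enzalutamide. Both libraries at 20 µM were below the other 4. It was 2.17-fold lower without and 2.22-fold lower with enzalutamide, and its effect was −1.12 ± 0.24 (SE; limma adjusted p = 0.019). With the fragments of its named pseudogenes added, a choice made after seeing the data, the 2 differences were −0.87 and −0.85 on the log2 scale in place of −1.10 and −1.14. Exons of other genes cover 12.4% of its exon bases. On the opposite strand its span overlaps AC010761.1 by 1391 bases, at 5.43 FPKM in the control and 4.19 with 20 µM PTUPB. It also overlaps TLCD1 there by 12 bases, at 51.7 FPKM in the control and 17.4 with 20 µM PTUPB. The part of these genes was not tested.

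RPL7A, an abundant large subunit protein whose introns host small nucleolar RNAs, was at 667, 885, 716, 727, 404 and 325 FPKM in the same order. The libraries at 20 µM PTUPB were again the 2 lowest, and the one with enzalutamide was the lower of them although enzalutamide without PTUPB was the highest. It was 1.65-fold lower without and 2.73-fold lower with enzalutamide, and its effect was −1.08 ± 0.28 (limma adjusted p = 0.035). Set against the median member in the same pair, which removes any scaling between libraries, RPL7A was lower by 0.83 and 1.69 on the log2 scale, and RPL23A by 1.22 and 1.40.

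RPL22 and its paralog RPL22L1, RNA-binding proteins of the large subunit that can substitute for each other, both fell. RPL22L1 was at 225, 249, 286, 202, 135 and 124 FPKM, and RPL22 at 20.2, 21.9, 19.2, 19.0, 10.1 and 14.6 FPKM in the same order. For both genes the 2 libraries at 20 µM were below the other 4. RPL22L1 was 1.67-fold lower without and 2.00-fold lower with enzalutamide, with an effect of −0.86 ± 0.25 (limma adjusted p = 0.045). RPL22 was 2.01-fold and 1.495-fold lower, with an effect of −0.75 ± 0.20 (adjusted p = 0.037). RPL22L1 was the more abundant of the 2 per length in every library. The span of RPL22 overlaps RNF207 on the opposite strand, which was at 2.47 FPKM in the control and 0.418 with 20 µM PTUPB; its part was not tested.

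RPL7L1, a paralog of RPL7, was at 32.6, 27.3, 24.7, 20.7, 17.3 and 17.3 FPKM. It was lowest at 20 µM PTUPB, and at 10 µM it was lower than without PTUPB both without and with enzalutamide. The effect at 20 µM was −0.75 ± 0.18 (limma adjusted p = 0.026), and at 10 µM it was −0.38, which did not pass. Its partner RPL7 was at 422, 493, 416, 436, 478 and 579 FPKM and was highest with 20 µM PTUPB and enzalutamide, with an effect at 20 µM of 0.20 that did not pass.

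RPS27L, a paralog of RPS27, had the largest rise. It was at 5.28 FPKM in the control, 5.55 with enzalutamide, 5.88 with 10 µM PTUPB, 6.80 with 10 µM PTUPB and enzalutamide, 11.1 with 20 µM PTUPB and 14.0 with 20 µM PTUPB and enzalutamide. The libraries at 20 µM were above all others. It was 2.10-fold higher without and 2.52-fold higher with enzalutamide, with an effect of 1.07 ± 0.16 (limma adjusted p = 0.0085). RPS27 itself was far more abundant, at 743, 1008, 859, 893, 956 and 1401 FPKM, and its effect at 20 µM (0.42, adjusted p = 0.29) did not pass.

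RPS20, a small subunit protein, was at 222, 286, 248, 244, 411 and 569 FPKM in the same order. It was 1.85-fold higher at 20 µM PTUPB without and 1.99-fold higher with enzalutamide, and both libraries were above the other 4 (effect 0.94 ± 0.25, limma adjusted p = 0.035). Just outside the threshold stood RPL30, at 64.3, 84.04, 71.0, 68.1, 104 and 150 FPKM (effect 0.76 ± 0.23, adjusted p = 0.051), and RPL37, at 40.9, 59.1, 55.9, 45.2, 73.8 and 118 FPKM (effect 0.91 ± 0.29, adjusted p = 0.057). RPS12, of the small subunit, was at 458, 654, 528, 568, 683 and 1173 FPKM (effect 0.71 ± 0.28, adjusted p = 0.105). All 3 had their 2 highest libraries at 20 µM PTUPB. On the other side, RPS15 had an effect of −0.62 (adjusted p = 0.089).

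**Figure D4:**
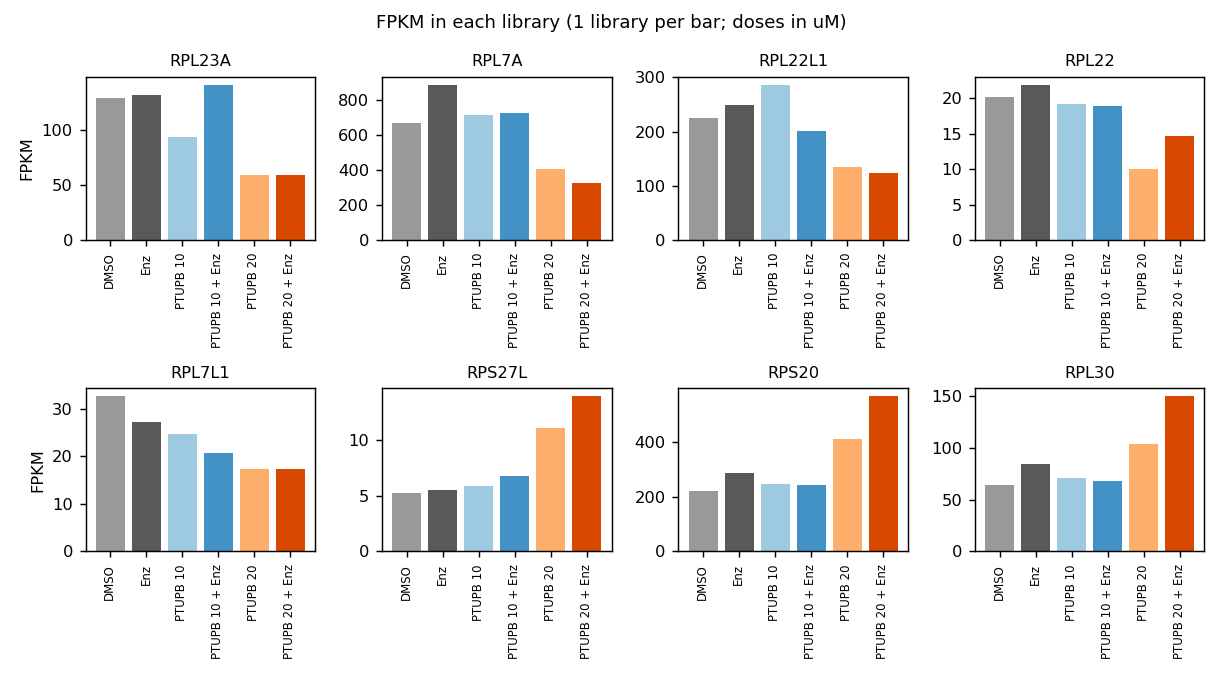
FPKM in each of the 6 libraries for the 7 ribosomal protein genes called at 20 µM PTUPB and for RPL30, called between the doses; each bar is 1 library and each panel has its own axis from 0. In each of the 7 genes the libraries at 20 µM lie on one side of the other 4, below them for RPL23A, RPL7A, RPL22L1, RPL7L1 and RPL22 and above them for RPS27L and RPS20.

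Each member was also set against the median member of the same pair. Counted at a margin of 0.5 on the log2 scale, chosen after the values were seen, 63 of 82 members lay within it in both pairs at 20 µM PTUPB. Below it in both lay 6, the 5 that fell and RPS15, and above it in both lay 4, RPS27L, RPS20, RPL30 and RPL37. The other 9 were beyond it in 1 pair only or in opposite directions. The same count was not made over all tested genes, so these numbers have no background share. The SD of the log2(FPKM + 1) differences without enzalutamide was 0.39 over the members and 0.95 over all genes. With enzalutamide it was 0.47 and 1.04. RPLP0 followed the members' median profile closely over the 6 libraries, with a mean absolute difference of 0.021 on the log2 scale. RPL23A and RPL7A were the farthest from it, at 0.577 and 0.576.

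**Figure D5:**
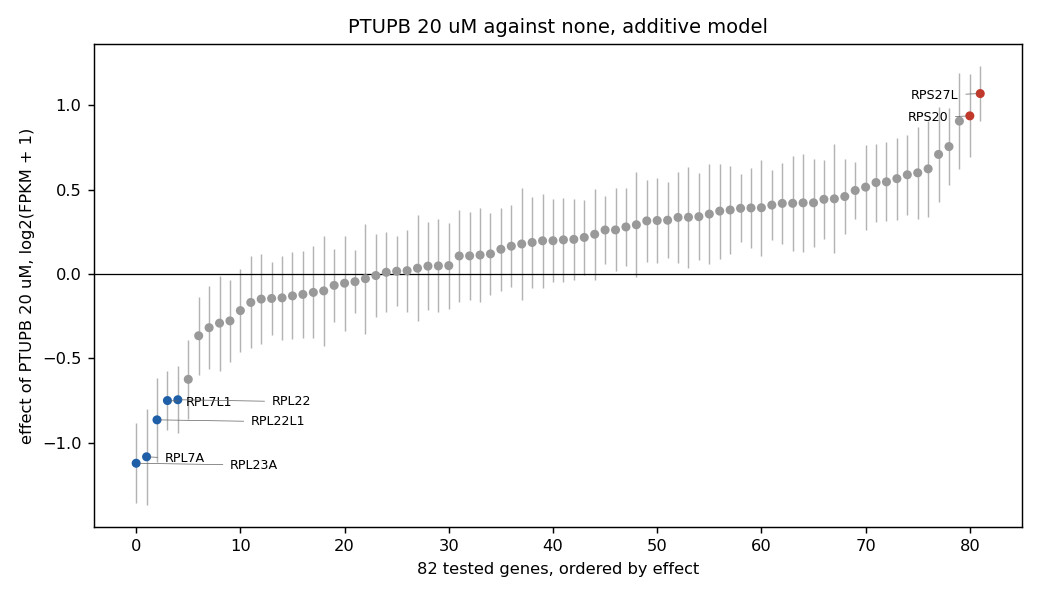
Effect of 20 µM PTUPB against none for each of the 82 tested ribosomal protein genes, ordered by size, on the log2(FPKM + 1) scale; bars are ± 1 SE of the additive model. Blue points fell and red points rose; most of the grey points lie between −0.4 and 0.7.

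Between the PTUPB doses, 20 µM against 10 µM, 3 members rose by limma's additive fit (RPS20, RPS27L and RPL30) and 3 fell (RPL7A, RPL23A and RPL22L1), against 33.4% of all genes called (16.5% rising, 16.9% falling). The median member effect was 0.30. With TPM 25 members (30.5%) rose and 3 fell, against 21.3% of all genes rising, so the rising share lay above that of all genes in this scaling and below it with FPKM. In fits that left out 1 library the counts lay between 0 and 7 rising and between 0 and 1 falling. Without 10 µM PTUPB and without 10 µM PTUPB with enzalutamide 0 rose and 0 fell (6.47% and 8.79% of all genes called). Without the control or the enzalutamide library 1 rose and 0 fell (19.9% of all genes called in each). Without 20 µM PTUPB 7 rose and 1 fell (43.1%), and without the combination at 20 µM 2 rose and 1 fell (30.9%). Each of these fits has 1 residual degree of freedom. In single pairs of 20 against 10 µM, 0 members were higher and 1, RPL22L1, lower by at least 1 on the log2 scale without enzalutamide (22.3% of all genes past it), and 8 higher and 2, RPL23A and RPL7A, lower with it (28.4%). By any margin 44 of 82 were higher without enzalutamide (all genes, 49.9%) and 71 with it (51.3%). RPL30, a large subunit protein, had an effect of 0.84 (adjusted p = 0.040).

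By single pairs, few members were past 1 on the log2 scale at 20 µM PTUPB: RPL10L higher and RPL23A lower without enzalutamide, where 22.1% of all genes were past it, and RPS27L higher and RPL23A and RPL7A lower with enzalutamide, where 29.3% were. By any margin, 53 members were higher and 29 lower without enzalutamide (all genes, 49.5% higher), and 61 higher and 21 lower with it (50.3%). In both pairs 51 were higher (38.6% of all genes) and 19 lower (38.5%). For 10 members the difference was downward without and upward with enzalutamide, and for 2 the reverse. A larger share of all genes than of the members was neither higher in both pairs nor lower in both. The interaction of enzalutamide with linear PTUPB dose was fitted over all libraries and does not test the 20 µM pairs alone. The members' enzalutamide difference did not follow a line in dose. The median SE of the interaction was 0.57 over the members and 0.38 over all genes. By limma 0 members and 0 genes passed (0% called), with 1 residual degree of freedom. At an unadjusted p under 0.05 there were 1219 genes and 1 member. That member was RPL10L, an intronless retrogene of RPL10 known from testis, at 9.93, 13.2, 14.0, 14.7, 22.5 and 14.2 FPKM (211 to 432 fragments). It was 2.27-fold higher at 20 µM PTUPB without enzalutamide and 1.07-fold higher with it (interaction adjusted p = 0.49).

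By class, the small subunit genes had 1 rise (RPS20) and 0 falls among 31 tested at 20 µM PTUPB, the large subunit genes 0 rises and 3 falls among 43, and the stalk genes 0 of 3. The 5 tested paralogs had 1 rise (RPS27L) and 2 falls (RPL7L1 and RPL22L1). Of all tested genes 15.9% rose and 18.2% fell, and classes of 3 and 5 genes are too small to set against these shares. RPL26L1, a paralog of RPL26, was at 29.5, 29.7, 25.1, 22.6, 31.4 and 40.6 FPKM and did not pass (effect 0.26). RPL26 was at 10.1, 10.4, 10.4, 12.9, 10.8 and 17.3 FPKM, so the paralog was listed higher per length in each library. A gene on the same strand, AC135178.2, covers 14.3% of the exon bases of RPL26, and 10.3% of the fragments given to it or its named pseudogenes were on the pseudogenes, so its listed level is uncertain. RPS4X, the X-linked form of that small subunit protein, had an effect of 0.42 (adjusted p = 0.23), at 333, 418, 359, 350, 463 and 538 FPKM. Among the members that bind 5S rRNA, RPL5 was at 240, 317, 249, 230, 238 and 371 FPKM and RPL11 at 163, 204, 184, 170, 216 and 313 FPKM. Neither passed, with effects of 0.11 and 0.51. RPS27A, made as a fusion with ubiquitin, had an effect of 0.54 (adjusted p = 0.12).

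Members called at 20 µM PTUPB were found with and without the pyrimidine run at the start. Of 47 tested members with the run, 0 rose and 3 fell at 20 µM PTUPB, with a median effect of 0.20. Of 20 without it, 1 rose and 1 fell, with a median of 0.18. RPL23A, which fell, and RPS20, which rose, had no promoter entry and are in neither group. Over all tested genes 15.9% rose and 18.2% fell. Motifs were sought on either strand in windows of 300 bases (250 before and 50 from the start). A gene counted with a match at any of its listed starts. The letters CCGGAAG, the core bound by ETS factors, were in 35.8% of the 67 members and 12.2% of the 27305 genes listed. ATGGCGG, the core of YY1, was in 20.9% against 6.66%, and the palindrome of ZBTB33 in 5.97% against 0.505%. The E-box CACGTG was in 7.46% against 8.77%, CCCCGCCC in 19.4% against 26.1% and TATAAA in 10.4% against 14.0%. None of these motifs contains another, and a match describes the letters only.

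The related lists that follow are read against the 15.9% of all genes that rose and the 18.2% that fell at 20 µM PTUPB. Of 24 tested genes with known TOP mRNAs outside the ribosomal protein set, 3 rose at 20 µM PTUPB and 1 fell, with a median of 0.26. RACK1, a scaffold protein on the small subunit, was at 174, 200, 169, 197, 353 and 511 FPKM and rose by 1.18 ± 0.23 (SE) on the log2 scale. GAS5, a non-coding host gene of small nucleolar RNAs, was at 74.9, 122, 96.5, 119, 264 and 491 FPKM (effect 1.90), and TPT1 had an effect of 0.86. HNRNPA1, a splicing factor, was at 176, 174, 173, 124, 56.2 and 47.7 FPKM and fell by 1.74. FAU, whose product releases a small subunit protein joined to a ubiquitin-like domain, had an effect of 0.87 (adjusted p = 0.050) and RPL36AL one of 0.59; neither passed. EEF1A1, an elongation factor, was at 1230, 1573, 1213, 1397, 1205 and 1186 FPKM and did not pass.

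Of 18 genes of mTORC1 and TOP control, 2 rose and 2 fell (all genes, 34.2% called). SESN2, an inhibitor of mTORC1 in amino acid shortage, was at 7.99, 8.75, 8.74, 19.7, 40.6 and 61.3 FPKM (effect 2.44), and RHEB, the activator of mTORC1, had an effect of 0.92. EEF2K, the kinase of elongation factor eEF2, was at 9.67, 9.34, 9.13, 7.27, 2.17 and 2.94 FPKM (effect −1.57), and DEPTOR had one of −1.27. LARP1, at 32.3 to 39.1 FPKM, did not pass. Of 10 transcription factors of ribosomal protein promoters, 0 rose and 2 fell: MYC, at 98.5, 94.5, 71.7, 60.9, 2.48 and 3.27 FPKM (effect −4.66), and E2F1 (effect −2.05). The members' own median in those libraries is given above.

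Of 8 genes of the 5S rRNA particle and the MDM2 pathway it acts on, 3 rose and 1 fell (all genes, 15.9% and 18.2%). CDKN1A, an inhibitor of the cell cycle kinases, was at 32.8, 48.4, 25.2, 50.4, 427 and 469 FPKM (effect 3.46), and MDM2 at 9.87, 9.75, 10.2, 11.0, 33.3 and 38.7 FPKM (effect 1.77). HEATR3, which carries RPL5 to the nucleus, was at 9.03, 9.38, 8.69, 8.77, 4.23 and 2.80 FPKM (effect −1.19). Of 16 tested chaperones and importins of ribosomal proteins, 1 rose, TNPO1 (0.94), and 2 fell, HEATR3 and IPO5 (−0.75).

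Of 13 genes for ribosome rescue and quality control, which act on stalled or collided ribosomes, 7 rose and 0 fell at 20 µM PTUPB (all genes, 15.9% and 18.2%), with a median of 0.67. ZNF598, which marks collided ribosomes with ubiquitin, was at 13.2, 13.1, 13.6, 16.2, 37.3 and 73.3 FPKM (effect 1.92). PELO and HBS1L, which split stalled ribosomes together, had effects of 1.71 and 1.40, with PELO at 6.89, 5.74, 5.90, 5.81, 18.6 and 27.8 FPKM. UFM1 (1.27), MAP3K20 (0.91), ASCC3 (0.78) and LTN1 (0.67) also rose. Without the control library 2 of the 13 rose (2.82% of all genes), without the enzalutamide library 0 (0.887%), without 1 or the other of the libraries at 10 µM PTUPB 5 (11.6%), and without level filter 2 (1.74%).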

How the data were processed

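The authors deposited 1 FPKM value per gene and library (fragments per kilobase of exon, scaled by depth); alignment with HISAT and quantification with Cufflinks are named per the submitters' processing notes, without versions. The genome build and the use of strand are not given in the sources used here. All 58735 gene identifiers matched GENCODE 29. FPKM times exon length fell on whole multiples of 1 step per library (within 0.05), which gave the fragments. Values were analysed as log2(FPKM + 1) for the 12960 genes with a mean of at least 1 FPKM, with limma 3.58.1 in R 4.3.3 (intensity trend, two-sided, Benjamini-Hochberg over all genes, threshold 0.05) in an additive model and, for the interaction, with enzalutamide by linear dose. Recovery was tested on simulated data. Python 3.11.15, numpy 2.4.6, pandas 2.3.3 and matplotlib 3.10.9 served the rest. The members and lists were chosen with earlier results of these data known. Members named were the 5 largest effects per direction at 20 µM PTUPB, 3 per direction in the other comparisons, paralogs with their partners and a fixed set; from related lists, the 2 largest per direction and a fixed set. EEF1A1, EEF1G, RPS2, RPS18, RPL31, RPL36, RPL36A, RPL17, RPS15, TLCD1, RNF207, AC135178.2, COL1A1, HBS1L, UFM1, MAP3K20, ASCC3 and LTN1 were named after their values were seen. Alternatives were other scalings, pseudocounts and filters, limma-voom on recovered fragments, and each library left out.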

Additional observations from a re-analysis of the deposited data

How the results depend on the processing

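No paired analysis was possible because the labels give no replicate numbers and each group holds 1 library; the additive model itself sets the libraries with and without enzalutamide beside each other at each PTUPB level. Members rising at 20 µM PTUPB (main count 2) numbered 9 with TPM, 4 with a filter of 5 FPKM, with total fragments and with each library scaled to the member median, 5 with limma-voom, 1 with no filter, and 0 to 6 with 1 library left out; members falling (5) numbered 0 with no filter and 0 to 2 with 1 library left out. At 20 against 10 µM, rising members (3) numbered 25 with TPM, 5 with total fragments, 8 with limma-voom, 1 scaled to the member median, 0 with no filter and 0 to 7 with 1 library left out, and falling members (3) 6 scaled to the member median, 0 with no filter and 0 to 1 with 1 library left out. The share of all tested genes called moved too. At 20 µM it was 34.2% in the main fit, 34.2% with TPM, 34.5% with total fragments and 42.8% with the filter of 5 FPKM. It was 38.6% with limma-voom, 30.5% scaled to the member median and 3.83% with no filter. At 20 against 10 µM it was 33.4% in the main fit, 36.0% with TPM, 39.2% with limma-voom and 2.77% with no filter. The median effect at 20 µM was -0.000924 and at 20 against 10 µM -0.000678 when scaled to the member median, which that scaling sets near 0. The median at 10 µM ranged from −0.38 to 0.12 with 1 library left out, and that of 20 against 10 µM from 0.045 to 0.54. The median for enzalutamide was 0.059 with TPM and 0.022 scaled to the member median. Of the 7 genes called at 20 µM PTUPB, RPS27L was called in 8 of the 8 other settings and each of the others in 7, lost with no filter. With 1 of the 6 libraries left out, RPS27L was called in 4 fits, RPL23A and RPS20 in 3, RPL7A and RPL7L1 in 2, RPL22 in 1 and RPL22L1 in 0. Scaling to the member median was chosen after seeing the data. Low members such as RPL10L (211 to 432 fragments per library) carry more counting error, and 1 library per group limits every comparison.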

Other observations

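RPL41P1, a processed pseudogene with an annotated exon of 81 bases, was listed at 1182 FPKM in the control, 1449 with enzalutamide, 1102 with 10 µM PTUPB, 1534 with 10 µM PTUPB and enzalutamide, 877 with 20 µM PTUPB and 1293 with 20 µM PTUPB and enzalutamide. Per length this was above its parent RPL41, with 1088 exon bases, in each library. By fragments the parent held more: 12.4% of those given to RPL41 or its 3 named pseudogenes were on the pseudogenes. RPL9P9, a transcribed pseudogene, was listed at 132 FPKM in the control and 177 with 20 µM PTUPB and enzalutamide. Of 1149 named ribosomal protein pseudogenes, 76 had a mean of at least 1 FPKM.

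Among genes outside the ribosomal proteins, those whose values followed the core members' median profile most closely over the 6 libraries were FIS1, SCAP, SLC25A11, TMED2 and GPX4, with a mean absolute difference of 0.044, 0.057, 0.064, 0.064 and 0.064 on the log2 scale. FIS1, of mitochondrial fission, was at 31.7, 39.1, 34.0, 34.3, 36.7 and 51.7 FPKM in the order control, enzalutamide, 10 µM PTUPB without and with enzalutamide, and 20 µM PTUPB without and with enzalutamide. The 6 points share their libraries, and the likeness is a description.

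At 20 against 10 µM PTUPB, 16 of 77 mitochondrial ribosomal protein genes rose and 4 fell, with a median of 0.36, beside 3 and 3 of 82 cytosolic ones and 16.5% and 16.9% of all genes. At 10 µM against none both sets had 0 called, with medians of −0.27 and −0.11.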
